A study of Mus musculus with 7 samples.

Results

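The collagens and their partner proteins are transcripts of connective tissue cells, and here they were read in RNA of sorted eosinophils from mouse muscle. The set holds 34 genes, chosen by symbol, for fibrillar and basement membrane collagens, other matrix proteins and markers of fibro-adipogenic progenitors. All 34 of 34 were found among the 24421 genes of the count table. In 6 of 7 libraries every member had reads, and together they took 0.341% to 0.950% of all reads assigned to genes. In the remaining library, WT replicate 3, 14 members had 0 reads and 19 more stood at 6.05 CPM or less, while the progenitor marker Pi16 stood at 372 CPM, within the 229.9 to 394 CPM of the others. CPM are counts scaled to a common library size. In bulk RNA, fewer cells of a type and less RNA per cell cannot be told apart.

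The libraries came from cells sorted from digested muscle 3 days after "ntx", a treatment that the labels do not spell out. Cells were CD45-positive, SiglecF-positive and negative for NK1, Ly6G and CD3e, with a further CD11b gate. The genotype label was WT for 3 libraries and IL5-Tg for 4, with tissue and day shared by all. The labels give no age, strain, sex, transgene promoter or count of mice per library, and do not say whether these mice carry the mdx mutation named in the series' title. As no label says that libraries came from separate mice, a p-value here measures only how libraries vary, which may be technical.

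Collagens are long secreted proteins of 3 chains wound into a triple helix. Fibrillar types I, III and V form the fibres of muscle connective tissue, type IV and laminin form the basement membrane around each muscle fibre, and type VI links the basement membrane to the fibres outside it. Fibro-adipogenic progenitors are mesenchymal cells of the muscle interstitium that carry the PDGF receptor alpha, lie outside the blood lineage that CD45 marks, multiply after injury and make much of the matrix. Eosinophils are granulocytes and are not known as a main source of fibrillar collagen.

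WT replicate 3 stood apart before any gene was compared. Counts assigned to genes ranged from 9665093 to 17447106 per library, and WT replicate 3 had 11580959, within that range. It detected 10877 genes, against 12759 to 14391 in the others. Among genes with few reads, counts were densest around 12 in it, 5 in WT replicate 1 and 8 in WT replicate 2. In the IL5-Tg libraries this value was 1 to 4. It is the centre of the window of up to 5 counts with most genes per count. By counting error alone, a count of 0 in WT replicate 3 allows up to 0.284 CPM (a floor of 3 reads). Floors and intervals here take each read as independent, which was not tested and which the low counts of this library put in doubt, so true bounds may be higher. Markers of the sorted cells had reads in all 7 libraries, though some were lower in WT replicate 3 than in most others, as given below. The eosinophil gene Siglecf stood at 467, 251 and 648 CPM in WT and 597, 857, 470.5 and 527 CPM in IL5-Tg. Throughout, values of WT libraries are given in the order of replicates 1, 2 and 3, and those of IL5-Tg libraries in the order of replicates 1, 2, 3 and 4.

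Promoter sequence is shown for 5 members. Of these, 4 were picked from the 33 members that were low in WT replicate 3, and the fifth, Pi16, was not low there. Whether a motif goes with the level in that library was not tested. RefSeq windows from 250 bases before to 50 after the start site (GRCm38.p6, the patch release of mm10) were held for 24 of the 34 members. The type IV genes Col4a1 and Col4a2 lie head to head, and their annotated ends overlap by 22 bases on opposite strands, so reads of those bases may belong to either gene. Capitals mark matches on either strand to the TATA box searched as TATAAA, to the CCAAT box by its own letters, and to the GC box searched as GGGCGG.
Col4a1 chr8:11312777-11313076 (minus strand): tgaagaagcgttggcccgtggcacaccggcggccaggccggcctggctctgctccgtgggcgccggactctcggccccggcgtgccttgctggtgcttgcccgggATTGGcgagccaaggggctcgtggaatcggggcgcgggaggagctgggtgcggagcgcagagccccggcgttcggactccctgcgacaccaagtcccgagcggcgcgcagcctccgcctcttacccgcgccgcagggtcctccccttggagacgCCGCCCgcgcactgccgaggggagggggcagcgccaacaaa
Col4a2 chr8:11312555-11312854 (plus strand): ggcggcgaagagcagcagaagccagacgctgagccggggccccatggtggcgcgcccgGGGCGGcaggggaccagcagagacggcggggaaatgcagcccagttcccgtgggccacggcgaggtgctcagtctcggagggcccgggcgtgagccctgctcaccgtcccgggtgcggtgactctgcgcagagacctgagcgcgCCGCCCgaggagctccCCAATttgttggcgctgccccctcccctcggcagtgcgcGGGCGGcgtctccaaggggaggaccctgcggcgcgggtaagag
Col1a2 chr6:4505368-4505667 (plus strand): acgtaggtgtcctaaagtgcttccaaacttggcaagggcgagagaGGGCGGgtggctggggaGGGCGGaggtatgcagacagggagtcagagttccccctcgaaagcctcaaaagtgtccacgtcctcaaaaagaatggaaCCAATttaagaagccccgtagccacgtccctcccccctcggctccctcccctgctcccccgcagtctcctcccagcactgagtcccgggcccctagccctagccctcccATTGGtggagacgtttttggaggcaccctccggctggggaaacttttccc
Col3a1 chr1:45311288-45311587 (plus strand): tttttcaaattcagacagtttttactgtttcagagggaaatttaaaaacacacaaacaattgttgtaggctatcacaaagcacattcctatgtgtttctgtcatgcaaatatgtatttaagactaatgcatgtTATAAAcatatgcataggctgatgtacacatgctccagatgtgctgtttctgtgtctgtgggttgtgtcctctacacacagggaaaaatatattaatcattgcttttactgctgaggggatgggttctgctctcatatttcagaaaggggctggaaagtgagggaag
Pi16 chr17:29318632-29318931 (plus strand): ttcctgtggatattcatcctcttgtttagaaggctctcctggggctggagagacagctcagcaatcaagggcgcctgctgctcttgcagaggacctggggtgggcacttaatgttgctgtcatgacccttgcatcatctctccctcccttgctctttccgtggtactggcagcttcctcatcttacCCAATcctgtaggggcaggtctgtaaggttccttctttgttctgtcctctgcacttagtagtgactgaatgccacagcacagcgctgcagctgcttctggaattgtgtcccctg
The windows of Col4a1 and Col4a2 share 78 bases. CCAAT or its reverse complement was found in 4 of these 5 windows, Pi16's among them, and TATAAA in that of Col3a1. GGGCGG occurred in the windows of Col4a1, Col4a2 and Col1a2. Over all members with a window, GGGCGG on either strand was found in 16 of 24 (66.7%), CCAAT in 8 of 24 (33.3%) and TATAAA in 3 of 24 (12.5%). The shares over all 27025 genes with windows of this length were 38.2%, 41.1% and 15.7%. The 3 motifs share no letters where they were found in these windows, RefSeq's start sites can differ from those of the gene annotation used below, and a match is a description of the sequence alone.

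Type I and type III collagen were the most abundant members. Col3a1, the single chain of type III collagen (mm10 chromosome 1 at 45311538 to 45349706, GENCODE vM21), stood at 1186, 1055 and 4.54 CPM in WT and 1315, 609, 1060.4 and 1661 CPM in IL5-Tg. Col1a2 (chromosome 6 at 4504814 to 4541544) and Col1a1 (chromosome 11 at 94936224 to 94953042) encode the chains of type I collagen. Col1a1 was at 500.1, 751 and 4.82 CPM in WT and 1102, 573, 556 and 1090.2 CPM in IL5-Tg, and Col1a2 at 623, 917 and 2.46 CPM in WT and 1052, 469, 631 and 1078 CPM in IL5-Tg. The 48, 51 and 26 reads of Col3a1, Col1a1 and Col1a2 in WT replicate 3 compare with 6105 to 31988 in the other libraries, and WT replicates 1 and 2 lay within or just under the IL5-Tg range. Per kilobase of transcript the medians of the other 6 libraries were 202, 145 and 112 CPM per kb for Col3a1, Col1a2 and Col1a1, the highest 3 of the 34. The order of Col1a1 and Col1a2 turns round when all annotated exons are taken as the length.

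Type V collagen, a minor partner that starts and limits type I fibrils, was lower throughout. Col5a1 was at 90.8, 158 and 1.13 CPM in WT and 184, 90.5, 98.5 and 164 CPM in IL5-Tg. Col5a2, which lies 24614 bases from Col3a1 on chromosome 1, was at 131, 137 and 0 CPM in WT and 192, 78.0, 142 and 218 CPM in IL5-Tg. Col5a3 was at 61.2, 82.9 and 0 CPM in WT and 77.9, 38.0, 74.1 and 80.9 CPM in IL5-Tg. IL5-Tg replicate 2 was the lowest of the other 6 libraries for each of these 3 chains.

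**Figure D1:**
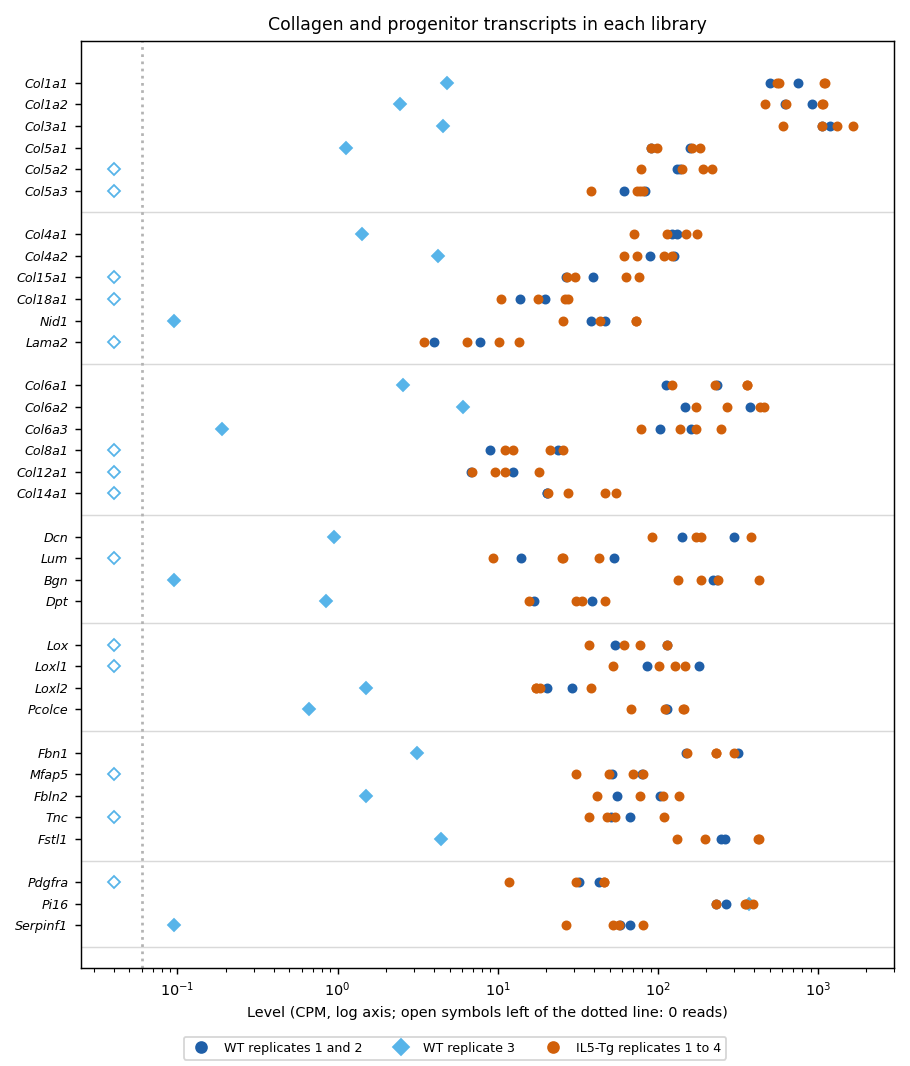
Level of each member in each library (CPM, log axis), with members grouped by role; open symbols left of the dotted line are counts of 0 reads. WT replicate 3 (diamonds) lies far left of the other 6 libraries for 33 members and among them for Pi16, at 372 CPM.

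Basement membrane genes followed the fibrillar ones. Col4a1 was at 132, 123 and 1.42 CPM in WT and 151, 70.9, 114 and 177 CPM in IL5-Tg, and Col4a2, its partner in the type IV triple helix, at 89.4, 126 and 4.25 CPM in WT and 109, 61.4, 74.1 and 123 CPM in IL5-Tg. Both chains were by far lowest in WT replicate 3, Col4a2 less so than most members, with 45 reads. Nid1, nidogen, which bridges laminin and type IV collagen, was at 38.4, 47.1 and 0.0945 CPM in WT and 72.8, 25.6, 43.6 and 72.9 CPM in IL5-Tg. Col15a1, a basement membrane zone collagen of muscle and vessels, was at 26.6, 39.1 and 0 CPM in WT and 63.2, 26.9, 30.5 and 76.5 CPM in IL5-Tg. Apart from WT replicate 3, both were highest in IL5-Tg replicate 4. Col18a1, the source of endostatin, was at 13.7, 19.7 and 0 CPM in WT and 26.4, 10.5, 17.8 and 27.4 CPM in IL5-Tg. Lama2, the laminin chain whose loss causes a muscular dystrophy, was the lowest member per length, at 3.99, 7.71 and 0 CPM in WT and 6.47, 3.46, 13.6 and 10.1 CPM in IL5-Tg. Col15a1, Col18a1 and Lama2 had 0 reads in WT replicate 3.

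The type VI chains Col6a2 and Col6a1 were, per length, the most abundant non-fibrillar collagens of the set. Over the libraries other than WT replicate 3, the median of the type VI chain Col6a3 was lower, at 14.8 CPM per kb. Col4a1 had 19.3 and Col4a2 15.4 CPM per kb. Col6a2 was at 148, 374 and 6.05 CPM in WT and 463, 172, 271 and 436 CPM in IL5-Tg, and Col6a1, 85161 bases from it on chromosome 10, at 113, 236 and 2.55 CPM in WT and 359.8, 123, 228 and 362 CPM in IL5-Tg. Col6a3, the third chain, was at 103, 162 and 0.189 CPM in WT and 172, 79.0, 138 and 248 CPM in IL5-Tg. All 3 chains were lower in WT replicate 1 than in WT replicate 2, and highest in IL5-Tg replicates 1 and 4. The fibril-associated collagen Col14a1 was at 20.2, 20.4 and 0 CPM in WT and 46.9, 20.6, 27.4 and 54.8 CPM in IL5-Tg, and Col12a1, of the same class, at 6.83, 12.5 and 0 CPM in WT and 11.1, 6.92, 9.55 and 18.1 CPM in IL5-Tg. Col8a1, a short chain collagen of vessels, was at 23.8, 8.98 and 0 CPM in WT and 21.3, 12.5, 11.1 and 25.4 CPM in IL5-Tg. These 3 had no read in WT replicate 3. Col14a1 was the 1 member of 34 whose groups did not overlap, IL5-Tg being higher, by a margin of 20.4 against 20.6 CPM. Over all tested genes 4.76% did not overlap in that direction and 4.6% with WT higher, where no member was.

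Small proteoglycans coat collagen fibrils. Decorin, Dcn, was at 300.2, 141 and 0.945 CPM in WT and 185, 91.5, 174 and 383 CPM in IL5-Tg. Lumican, Lum, 46984 bases from Dcn on chromosome 10, was at 53.2, 13.9 and 0 CPM in WT and 25.1, 9.30, 25.4 and 43.1 CPM in IL5-Tg, with a 5.72-fold range over those 6 libraries that was the widest of the 33 members other than Pi16. Biglycan, Bgn, was at 222, 235 and 0.0945 CPM in WT and 239, 134, 187 and 428 CPM in IL5-Tg. All 3 had their lowest value outside WT replicate 3 in IL5-Tg replicate 2. Dermatopontin, Dpt, which binds decorin, was at 39.0, 16.9 and 0.851 CPM in WT and 30.9, 15.7, 33.7 and 46.6 CPM in IL5-Tg. Dcn, Lum and Dpt were higher in WT replicate 1 than in WT replicate 2, whereas Bgn was slightly lower.

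Of the enzymes that process and cross-link collagen, the lysyl oxidase Lox was at 114, 54.2 and 0 CPM in WT and 61.7, 37.3, 77.5 and 115 CPM in IL5-Tg. Its relative Loxl1, which acts mainly on elastin, was at 86.0, 179.7 and 0 CPM in WT and 128, 52.6, 148 and 102 CPM in IL5-Tg, and had the opposite order in WT replicates 1 and 2. Loxl2 was at 20.3, 29.0 and 1.51 CPM in WT and 18.4, 17.2, 17.3 and 38.4 CPM in IL5-Tg. Loxl2 was the least depleted of these enzymes in WT replicate 3. Pcolce, an enhancer of procollagen C-proteinase, was among the most even members, at 112, 114 and 0.662 CPM in WT and 146, 67.8, 111 and 143 CPM in IL5-Tg. Lox and Loxl1 had 0 reads in WT replicate 3, and Loxl2 and Pcolce 16 and 7.

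Elastic fibre and matricellular genes shared the pattern. Fibrillin-1, Fbn1, the backbone of microfibrils, was at 149.8, 315 and 3.12 CPM in WT and 232, 152, 231 and 297 CPM in IL5-Tg. Mfap5, a microfibril partner, was at 79.3, 51.7 and 0 CPM in WT and 81.0, 30.9, 49.8 and 69.5 CPM in IL5-Tg, and fibulin-2, Fbln2, at 103, 55.4 and 1.51 CPM in WT and 77.9, 41.8, 107 and 136 CPM in IL5-Tg. The genotypes overlapped for all 3. Tenascin-C, Tnc, a matrix protein made after injury, was at 50.7, 66.7 and 0 CPM in WT and 48.1, 54.3, 37.4 and 109 CPM in IL5-Tg, the highest of 7 values being that of IL5-Tg replicate 4. Follistatin-like 1, Fstl1, a secreted glycoprotein of mesenchymal cells, was at 249, 261 and 4.44 CPM in WT and 431, 133, 198 and 420.1 CPM in IL5-Tg.

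The progenitor markers did not behave alike. Pdgfra, the receptor that defines fibro-adipogenic progenitors, was at 43.1, 32.0 and 0 CPM in WT and 30.9, 11.8, 46.3 and 45.8 CPM in IL5-Tg, and Serpinf1, which encodes the secreted factor PEDF, at 66.6, 57.8 and 0.0945 CPM in WT and 57.1, 26.7, 52.5 and 80.4 CPM in IL5-Tg. Both were at or near 0 in WT replicate 3, with 0 and 1 reads. Pi16, a peptidase inhibitor used as a marker of adventitial progenitor fibroblasts (chromosome 17 at 29317680 to 29330593), was at 229.9, 266 and 372 CPM in WT and 354, 394, 348 and 230.1 CPM in IL5-Tg. WT replicate 3, with 3931 Pi16 reads, was its second highest library after IL5-Tg replicate 2, and that IL5-Tg library was the lowest of the other 6 for 24 of the other 33 members. Pi16 made up 90.1% of the members' reads in WT replicate 3 and 2.67% to 10.5% elsewhere. Which cells its reads came from was not tested.

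The 33 other members fell to 0.00372% of gene reads in WT replicate 3 (431 reads, exact 95% interval 0.00338% to 0.00409%). They held 0.543% and 0.578% for WT replicates 1 and 2, then 0.705%, 0.305%, 0.524% and 0.925% for IL5-Tg. In WT replicate 3, 14 of the 34 had 0 reads and 3 had 1 read, and the highest of the 33 was Col6a2 with 6.05 CPM. The members were proposed with this pattern known, so it is a description and carries no test.

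Genes were also ranked by the ratio of CPM plus 1 in WT replicate 3 to the median of the other 6 libraries. Among 3520 genes with a mean of at least 50 CPM in those 6, 60 genes (1.7%) had a ratio under 0.05, and 22 of the 24 members in this range were among them. The exceptions were Col4a2, just outside at 0.0524, and Pi16 at 1.21, and the member just inside was Fbln2 at 0.0275. The 8 lowest genes that are no members were Il5, Serpinh1, Car4, Cxcl14, Rhoc, Postn, Aldh1a2 and Hspg2. Il5, the gene the transgene is named for, was at 1.39, 0 and 0 CPM in WT and 338 to 447 CPM in IL5-Tg, and Car4, a carbonic anhydrase, at 0.945 to 2.05 CPM in WT and 232 to 511 CPM in IL5-Tg. Both were low in every WT library, and the other 6 in WT replicate 3 alone. Serpinh1, the collagen chaperone HSP47, was at 303, 385 and 0.662 CPM in WT and 379, 173, 351 and 377 CPM in IL5-Tg. The matricellular gene Postn was at 106, 56.4 and 0.0945 CPM in WT and 161, 81.6, 85.0 and 253 CPM in IL5-Tg. Hspg2, perlecan of basement membranes, was at 57.2, 124 and 0 CPM in WT and 94.2, 61.9, 76.4 and 102 CPM in IL5-Tg. Each of these 3 had at most 7 reads in WT replicate 3. The retinoic acid enzyme Aldh1a2 was at 75.6, 94.1 and 0.0945 CPM in WT and 109, 34.9, 96.3 and 98.0 CPM in IL5-Tg and the GTPase Rhoc at 93.8, 123 and 0 CPM in WT and 139.5, 69.6, 105 and 97.6 CPM in IL5-Tg. Cxcl14, a chemokine made by fibroblasts, was at 123, 210.3 and 0 CPM in WT and 122, 55.8, 114 and 120.4 CPM in IL5-Tg.

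**Figure D2:**
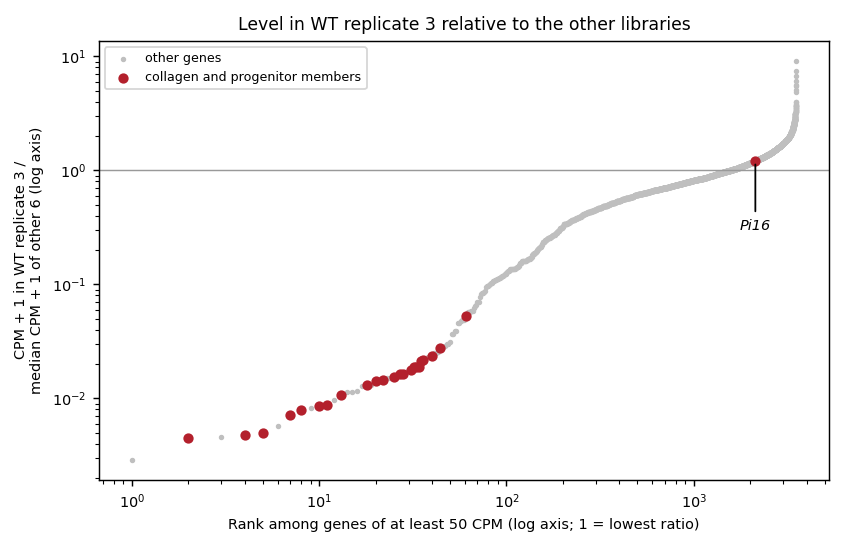
Ratio of the level in WT replicate 3 to the median of the other 6 libraries (CPM plus 1, log axis) against rank (log axis) for 3520 genes of at least 50 CPM, with members in red. Of the 24 members plotted, 22 lie under 0.05 and Pi16 lies at 1.21.

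The genotype comparison asked whether these transcripts differed between eosinophil sorts of IL5-Tg and WT muscle. By edgeR's quasi-likelihood test with p adjusted over all 12428 genes tested, 0 of 34 members rose and 0 fell, where 0.41% of all genes were called, 0.338% as higher and 0.0724% as lower. None had an unadjusted p under 0.05, against 9.04% of all genes, and 0 were called by DESeq2 (1.81% of all genes) or limma-voom (0.257%). All 34 passed the filter on low counts. All 34 log2 fold changes were positive, from 0.20 to 1.46, with a median of 0.67 against 0.03 over all genes tested. Without WT replicate 3 the median was 0.12, 23 were positive and 11 negative, and again 0 of 34 passed, where 0.752% of all genes were called. A p that misses the threshold does not show that levels were equal. The median standard error was 1.16 with all 7 libraries and 0.39 without WT replicate 3.

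Single members are given with and without that library. Col1a1 was 419 ± 379.8 CPM (SD, n = 3) in WT and 830.3 ± 307 CPM (SD, n = 4) in IL5-Tg, a log2 fold change of 0.99 (SE 1.15, adjusted p = 0.899 by edgeR), and 0.42 (SE 0.37, adjusted p = 0.841 by edgeR) without WT replicate 3. Col3a1 had 0.63 (SE 1.22, adjusted p = 0.940 by edgeR), and 0.07 (SE 0.36, adjusted p = 0.985 by edgeR) without that library. For Col4a1 the values were 0.58 (SE 1.05, adjusted p = 0.936 by edgeR) and 0.02 (SE 0.34, adjusted p = 0.997 by edgeR). In the other 6 libraries the levels of these 3 genes overlapped between genotypes.

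For Col6a2, the highest non-fibrillar collagen, the log2 fold change was 0.93 (SE 1.02, adjusted p = 0.894 by edgeR), and 0.37 (SE 0.44, adjusted p = 0.895 by edgeR) without WT replicate 3. Dcn had 0.50 (SE 1.23, adjusted p = 0.955 by edgeR) and -0.06 (SE 0.46, adjusted p = 0.991 by edgeR). Col14a1, with the largest difference of the 34, had 1.46 (SE 1.16, adjusted p = 0.825 by edgeR), and 0.90 (SE 0.39, adjusted p = 0.532 by edgeR) without WT replicate 3, where its unadjusted p of 0.0402 was the 1 under 0.05 among 34, against 8.83% of all genes. Lum turned from 0.20 to -0.35 and Loxl1 from 0.28 to -0.29. Pi16 was 289 ± 73.6 CPM (SD, n = 3) in WT and 331 ± 70.5 CPM (SD, n = 4) in IL5-Tg, a log2 fold change of 0.20 (SE 0.27, adjusted p = 0.912 by edgeR), the smallest error of the 34. Without WT replicate 3 it was 0.44 (SE 0.30, adjusted p = 0.774 by edgeR).

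**Figure D3:**
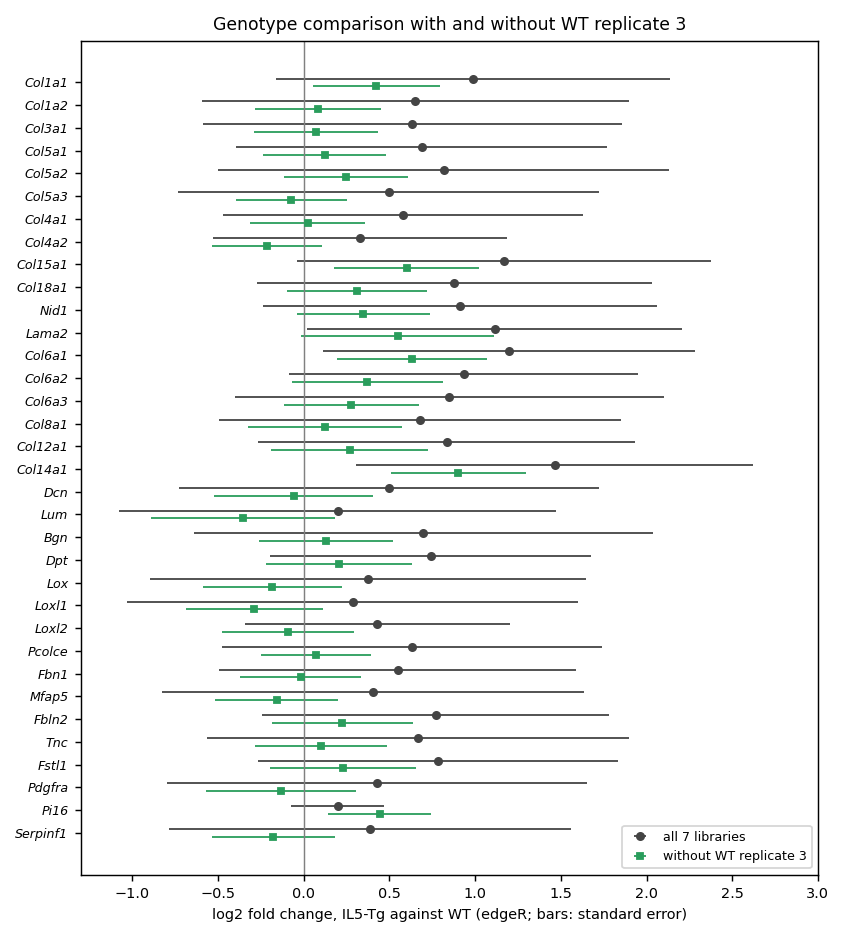
Log2 fold change of each member, IL5-Tg against WT, with standard errors, for all 7 libraries and without WT replicate 3. Standard errors are wide with all libraries, and without WT replicate 3 the values gather around a median of 0.12.

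Some sample titles share their first 3 characters across genotypes, which pairs WT replicate 1 with IL5-Tg replicate 3 and WT replicate 2 with IL5-Tg replicate 4, though the labels do not say what the shared start means. Over the 33 members other than Pi16, the median ratio of the IL5-Tg to the WT library was 1.04 in the first pair and 1.45 in the second. Each pair sets 1 library against 1, so the members do not count as replicates. The ratios over all genes were not computed. Pi16 had ratios of 1.51 and 0.866. Summed over the 33, the IL5-Tg libraries held 7218, 3346, 5035 and 8379.5 CPM. WT replicates 1 and 2 held 4999 and 5901 CPM, and WT replicate 3 held 40.7 CPM. The sums of IL5-Tg spanned a wider range than those of WT replicates 1 and 2, which are fewer libraries. With WT replicate 3 included, the WT range was the wider. IL5-Tg replicate 4 was the highest of the 6 libraries for 20 of the 33 members and IL5-Tg replicate 2 the lowest for 24.

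The make-up of the set can be read apart from its total. As a share of the 33 members' reads, Col3a1 took 23.7% and 17.9% for WT replicates 1 and 2, then 18.2%, 18.2%, 21.1% and 19.8% for IL5-Tg. Col1a1 took 10.004% and 12.7%, then 15.3%, 17.1%, 11.0% and 13.0%. The steadiest share over those 6 libraries was that of Col5a2, with a coefficient of variation of 7.52%, followed by Col1a2 at 9.14%. The most variable were Lum at 61.7% and Lama2 at 53.1%.

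Ratios of partner chains varied between libraries. Per kilobase of transcript, Col1a1 to Col1a2, which supply 2 chains and 1 chain of a type I molecule, was 0.723 and 0.739 for WT replicates 1 and 2, then 0.945, 1.10, 0.794 and 0.912 for IL5-Tg. It was 1.77 in WT replicate 3 from 77 reads of both genes, with a 95% counting interval of 1.08 to 2.96. With that library the groups overlapped, and without it they did not. The separation rests on 2 WT libraries, can arise by chance, and was found in 1 of several pairs looked at. Col3a1 to Col1a1 was 2.53 and 1.496 for WT replicates 1 and 2, then 1.27, 1.13, 2.03 and 1.62 for IL5-Tg, which overlapped. Col4a1 to Col4a2, which supply 2 chains and 1 chain of the common type IV molecule, was 1.44 and 0.951, then 1.35, 1.13, 1.498 and 1.40. Col6a1 to Col6a2 ran from 0.607 to 0.808 over the same 6 libraries and Col5a1 to Col5a2 from 0.548 to 0.915. These ratios come with no test. Dcn to Bgn, added after the values were seen, was, over the 6 libraries other than WT replicate 3, highest in WT replicate 1 at 1.86 and lowest in WT replicate 2 at 0.830, with the IL5-Tg libraries between them at 0.942 to 1.28.

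**Figure D4:**
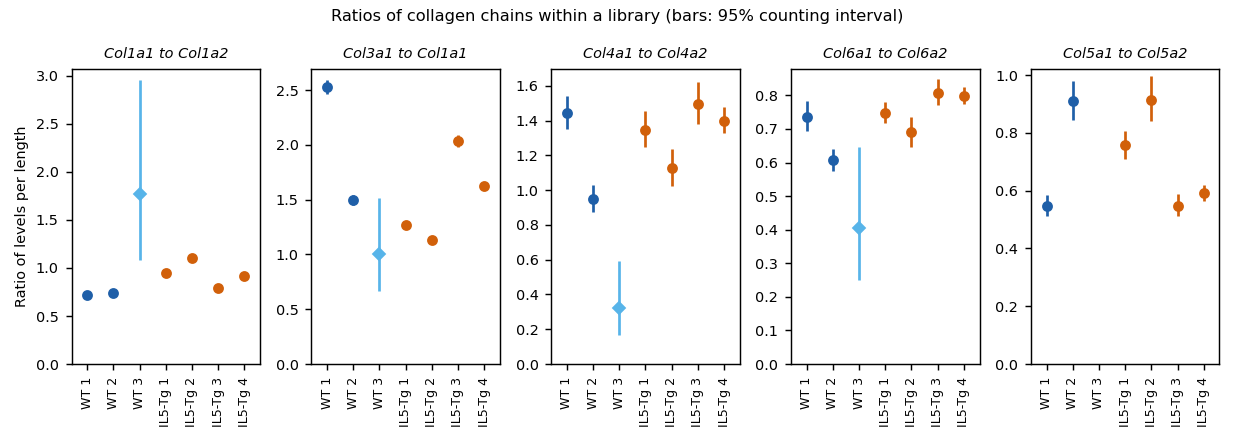
Ratio of the levels per length of 5 pairs of collagen chains in each library, with 95% counting intervals. Col1a1 to Col1a2 is 0.723, 0.739 and 1.77 for WT replicates 1, 2 and 3, and 0.794 to 1.10 for IL5-Tg. WT replicate 3 (diamonds) has wide intervals, and no Col5a2 read there leaves the last ratio undefined.

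Other collagens were scarce. Of 28 further chains in the table, 10 were tested, 0 rose and 0 fell, and 25 had 0 reads in WT replicate 3, of which 4 had none in any library. Over the whole table only 10877 of 24421 genes had reads in WT replicate 3. Counts of genes at 0 there, for this list and those below, are to be read beside that share. It is a loose reference, as it also counts genes without reads in any library. The other libraries detected 12759 to 14391 genes. The chains that were not tested had too few reads over the libraries. Col16a1, a fibril-associated chain, was at 14.2, 11.6 and 0 CPM in WT and 18.6, 7.84, 12.8 and 21.3 CPM in IL5-Tg. Col11a2 was at 8.46, 2.75 and 2.93 CPM in WT and 2.81, 0.922, 2.11 and 2.02 CPM in IL5-Tg and Col27a1 at 3.75, 6.86 and 0 CPM in WT and 3.19, 1.46, 2.19 and 4.10 CPM in IL5-Tg. Col16a1 and Col27a1 were at 0 in WT replicate 3, while Col11a2 was highest in WT replicate 1.

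Enzymes that fold and modify collagen were in part low in WT replicate 3. Of 27, 25 were tested and 0 changed in either direction. P4hb, protein disulphide isomerase and a subunit of prolyl hydroxylase, was at 671, 1022 and 699.9 CPM in WT and 1139, 1028, 1009 and 963 CPM in IL5-Tg. Ppib, cyclophilin B, was at 344, 521 and 347 CPM in WT and 385, 351, 385 and 402 CPM in IL5-Tg. Both serve many secreted proteins, and both were as high in WT replicate 3 as in WT replicate 1. Serpinh1, which serves collagens, had 7 reads in WT replicate 3, and 12 of the 27 had 0 there, among them the procollagen proteinase genes Bmp1 and Adamts2.

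Of 42 further fibroblast and progenitor markers 39 were tested, and 0 rose and 0 fell. Vimentin, Vim, was at 2336, 2498 and 548 CPM in WT and 2901, 1825, 3460.2 and 3052 CPM in IL5-Tg, and fibronectin, Fn1, at 532, 711 and 190.0 CPM in WT and 744, 437, 815 and 772 CPM in IL5-Tg. Gelsolin, Gsn, was at 892, 1288 and 1304 CPM in WT and 2323, 2449, 2046 and 1646 CPM in IL5-Tg, a log2 fold change of 0.87 (SE 0.27, adjusted p = 0.327 by edgeR). Gsn was not lower in WT replicate 3 than in the other WT libraries, Vim and Fn1 were lower but not absent, and 14 of the 42 had 0 reads there. These 3 were named for their high CPM and do not stand for the list. Of the same list, Cxcl14 and Postn had 0 and 1 reads there. The ratio to the median of the others, on CPM plus 1, was 0.203 for Vim, 0.262 for Fn1 and 0.0249 for Sparc. Summed over the 42, WT replicate 3 held 2507 CPM and each other library at least 6384.5 CPM. Among 28 genes of TGF-beta and PDGF signalling, the pathways that drive collagen synthesis in fibroblasts, 27 were in the table and tested, and 0 rose and 0 fell. The ligand Tgfb1 was at 399, 741 and 833 CPM in WT and 916, 899.5, 734 and 521 CPM in IL5-Tg. Its target Tgfbi was at 1038, 1705 and 1729.9 CPM in WT and 1201, 1435, 1322 and 1080.3 CPM in IL5-Tg. Neither was low in WT replicate 3. There 9 of the 27 had 0 reads, where 10877 of all 24421 genes had any. The median log2 fold change was -0.36 for the other collagens, 0.42 for the enzymes, 0.59 for the markers and 0.32 for the signalling genes. Without WT replicate 3 the medians were -0.82, 0.05, 0.15 and 0.09.

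Markers of other stromal cells moved with the members in part. Summed over 10 pericyte and smooth muscle markers, levels were 89.0, 153 and 8.70 CPM in WT and 171, 79.6, 106 and 176 CPM in IL5-Tg, and 7 of the 10 had 0 reads in WT replicate 3. The smooth muscle actin gene Acta2 was at 41.5, 75.6 and 6.43 CPM in WT and 61.6, 40.4, 47.2 and 61.3 CPM in IL5-Tg and Tagln at 13.2, 14.8 and 0 CPM in WT and 24.1, 13.3, 16.2 and 31.3 CPM in IL5-Tg. Both had their lowest value in WT replicate 3. The 8 muscle progenitor markers summed to 173, 339 and 24.4 CPM in WT and 446, 177, 100.1 and 338 CPM in IL5-Tg, with 5 of 8 at 0 reads in WT replicate 3, where Des was at 2.65 CPM and Cdh15 at 0.756 CPM. Vcam1, which is not restricted to these cells, made up most of that sum at 21.0 CPM, within the range of the other libraries. The 8 tendon markers summed to 131, 241 and 33.4 CPM in WT and 90.04, 67.9, 56.9 and 210.3 CPM in IL5-Tg. In WT replicate 3, 7 of those 8 were at 0, Thbs4 and Fmod included, and the remaining one, Mkx, made up the sum at 33.4 CPM. Mkx had a log2 fold change of -2.88 (SE 0.52, adjusted p = 0.0524 by edgeR), and -2.74 (SE 0.52, adjusted p = 0.0268 by edgeR) without WT replicate 3. In that second fit it fell, as the 1 tendon marker called, where 0.752% of all genes were called. It was named after its values were seen.

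Endothelial cells also make type IV collagen. The 12 endothelial markers summed to 342, 306 and 195 CPM in WT and 412, 259.8, 227 and 454 CPM in IL5-Tg, with 6 of 12 at 0 reads in WT replicate 3. Pecam1, which leukocytes also carry, was at 119, 115 and 159.6 CPM in WT and 148, 147, 84.4 and 149 CPM in IL5-Tg, and Fabp4 at 111, 29.2 and 8.03 CPM in WT and 56.0, 28.5, 36.4 and 85.1 CPM in IL5-Tg. Pecam1 was highest in WT replicate 3 and Fabp4 lowest. Muscle fibre markers summed to 374, 429 and 143 CPM in WT and 1362, 439, 735 and 517 CPM in IL5-Tg, with 3 of 12 at 0 in WT replicate 3, Acta1 being at 11.5 and Ckm at 4.35 CPM there. Most of that library's sum came from other markers of the list, chiefly Mylpf at 54.2 and Tnnt3 at 24.2 CPM, named after their values were seen, and Mylpf was within the range of the other libraries. The part of these cells in the members' levels was not tested.

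Macrophage genes were also low in WT replicate 3 in part. The 12 macrophage and monocyte markers summed to 4079, 5606 and 4066 CPM in WT and 5306, 5029, 6174 and 5277 CPM in IL5-Tg, and 0 of 12 were at 0 in WT replicate 3. Adgre1, which eosinophils also express, made up most of the sum in that library and was at 1287, 1416 and 2459 CPM in WT and 1697, 2236, 1591 and 1556 CPM in IL5-Tg. Csf1r was at 438, 921 and 785 CPM in WT and 982, 1035, 947 and 743 CPM in IL5-Tg. The complement gene C1qa, named after its values were seen like the 3 genes that follow, was at 373, 674 and 68.4 CPM in WT and 585, 349.6, 776 and 602 CPM in IL5-Tg. In WT replicate 3, C1qb was at 99.8, C1qc at 48.8 and Cd68 at 109 CPM, each below all other libraries. Ratios of WT replicate 3 to the median of the others, on CPM plus 1, were 0.117, 0.136, 0.130 and 0.235 for C1qa, C1qb, C1qc and Cd68, higher than the 0.00877 of Col1a1. The part of these cells in the members' levels was not tested either. The 9 eosinophil markers summed to 2613, 1516 and 3207 CPM in WT and 3144, 4120.2, 2538 and 2157 CPM in IL5-Tg, and 0 of 9 were at 0 in WT replicate 3. Of these 9, 6 had a positive log2 fold change, 3 were called higher in IL5-Tg by edgeR and 0 fell, where 0.338% of all genes were called higher. The 3 were Prg2, Ear1 and Ear6, granule proteins named after their values were seen. The list was thus not even in WT replicate 3. Its ratio to the median of the others, on CPM plus 1, was 0.260 for Prg2 and 0.173 for Ear1. Those others are mostly IL5-Tg libraries, in which both genes were called higher. The eotaxin receptor gene Ccr3 was at 1305, 640.4 and 1393 CPM in WT and 707, 1058, 575 and 618 CPM in IL5-Tg. The 8 Schwann and glial markers summed to 206, 238 and 323 CPM in WT and 231, 248, 215 and 226 CPM in IL5-Tg, of which Mbp, also read in blood cells, was 316 CPM in WT replicate 3 and Pmp22 3.497 CPM, with 5 of 8 at 0. The 7 adipocyte markers summed to at most 8.72 CPM in any library, Car3 and Cfd being the highest. The 9 mesothelial and epithelial markers summed to 37.8, 59.9 and 50.2 CPM in WT and 33.7, 35.2, 16.4 and 20.4 CPM in IL5-Tg, mostly Krt18, and Msln had 0 reads in WT replicate 3.

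**Figure D5:**
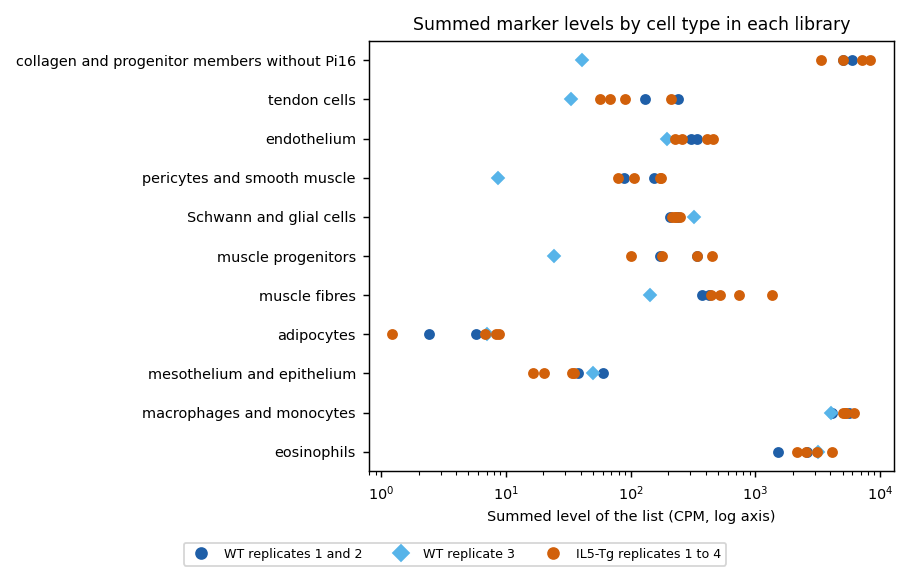
Summed level (CPM, log axis) of the 33 members other than Pi16 and of marker lists of 10 cell types in each library. WT replicate 3 (diamonds) is lowest for the members, at 40.7 CPM against 3346 CPM or more, and lies within the other libraries' range for eosinophil markers.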

How the data were processed

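The authors deposited raw read counts per gene symbol, 1 column per library, with no normalization. The tools bcl2fastq 2.20, STAR and Bowtie and the build mm10 appear in the submitters' processing notes. Which program counted, with what annotation and strand, is not given in the sources used here. Reads were paired, from a stranded mRNA kit, per the labels' protocols. The 2 rows naming no gene, reads assigned to no feature (9.15% to 18.2%) and ambiguous reads (0.750% to 0.943%), were left out. Total counts ranged from 11581365 to 20231509. Replicate numbers follow accession order and only name a library. No library repeated another of its genotype (chi-square per gene of at least 26.3), and libraries were not compared in this way across genotypes.

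The test was edgeR 4.0.16 (R 4.3.3, quasi-likelihood, robust, TMM, filterByExpr by group, genotype only, 7 libraries), with Benjamini-Hochberg adjustment over all genes and a threshold of 0.05. CPM use TMM-scaled sizes. Standard errors given with edgeR values are an approximation, the absolute log2 fold change divided by the square root of the F statistic. DESeq2 1.42.0 and limma 3.58.1 were alternatives. Transcript lengths are of the longest coding transcript in GENCODE vM21, matched by symbol. The members and lists were chosen with earlier results of these data known. Named were all members, and of each pathway list called genes and the 3 highest by CPM. Also named were the 2 highest of each cell type list and the 8 genes lowest in WT replicate 3 by ratio. Bmp1, Adamts2, Mkx, Prg2, Ear1, Ear6, C1qa, C1qb, C1qc, Cd68, Mylpf, Tnnt3, Vcam1 and Sparc were named after their values were seen. A gene that the rule names is not reported here.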

Additional observations from a re-analysis of the deposited data

Results flagged for a closer look

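With 4 IL5-Tg libraries, a value is set aside here when its gap to the nearest other takes a larger share of the group's range than Dixon's 95% critical value. Of 62 such groups 4 did, and chance gives about 1 in 20. Loxl2 stood at 38.4 CPM in IL5-Tg replicate 4, against 17.2 to 18.4 CPM in the other IL5-Tg libraries. Col5a3 was at 38.0 CPM in IL5-Tg replicate 2, against 74.1 to 80.9 CPM. The summed progenitor markers Pdgfra, Pi16 and Serpinf1 were at 356 CPM in IL5-Tg replicate 4, against 432 to 447 CPM, most of it Pi16. The summed further fibroblast markers were at 6410 CPM in IL5-Tg replicate 2, against 8630.2 to 8845 CPM. Groups of 3, and so WT replicate 3, are not open to this rule.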

How the results depend on the processing

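Under the 14 alternatives run, 0 of 34 members were called, and 0 genes of the 4 pathway lists. Of 476 member values, 460 kept their direction and 16, of 11 members, turned negative; the cause was not tested. On leaving out 1 library, the log2 fold changes of these 11 ran from a lowest to a highest value of -0.0730 to 1.18 for Col5a3, -0.22 to 1.01 for Col4a2, -0.0578 to 1.55 for Dcn, -0.35 to 1.89 for Lum, -0.18 to 1.43 for Lox, -0.29 to 1.36 for Loxl1, -0.0924 to 1.10 for Loxl2, -0.0179 to 1.62 for Fbn1, -0.16 to 1.17 for Mfap5, -0.13 to 1.08 for Pdgfra and -0.18 to 0.91 for Serpinf1. The lowest was without WT replicate 3 for each of the 11, and Lum was also negative when WT replicate 2 was left out (-0.00900) or IL5-Tg replicate 4 (-0.18). With the shared start of titles as a block, Col4a2 was -0.15, Loxl1 -0.0156 and Mfap5 -0.12. On leaving out 1 library, the members' median ranged from 0.12 without WT replicate 3 to 1.23 without WT replicate 2, and was 1.08 without WT replicate 1. It was 1.42 by limma-voom, 0.27 with the block and 0.68 without Pi16, an alternative added after its level was seen. The count of genes called over the whole table was 51, and 225 by DESeq2 and 32 by limma-voom. It was 16 to 97 on leaving out 1 library. With counts divided by the low count around which each library was densest, it was 100. By replicate number, no paired analysis was possible because the labels give none; the block above rests on the shared start of titles, whose meaning is not stated. For the 14 members without reads in WT replicate 3, a count of 0 allows 0.284 CPM by counting error alone. That bound takes each read as independent and may be too low for this library.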
